A study of Arabidopsis thaliana with 2 samples.

Results

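The Aux/IAA repressors and the TIR1/AFB auxin receptors of Arabidopsis thaliana were read out in early globular embryos, when the embryo is still a round cluster of cells without cotyledons. The members were 35 loci chosen by gene identifier, of which 29 encode Aux/IAA proteins and 6 encode receptors, and 31 of the 35 were among the 20612 loci listed in the expression table. IAA5, IAA15, IAA33 and IAA34 were not listed and count as not detected. Each library held at least 1 read for 30 members.

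One poly(A) RNA library was made from 30 pooled embryos of dcl1-5, a mutant allele of DICER-LIKE1 (DCL1), whose enzyme releases mature microRNAs from their precursors. The other was made from 30 pooled embryos of the wild-type strain Col-0. Embryos of both genotypes were hand-dissected, and their RNA was linearly amplified in 2 rounds. How mutant embryos were recognised is not stated in the labels. With 1 library per genotype the differences have no replicate check, and p-values are not given. Intervals in brackets are exact 95% intervals, which cover counting error only, because reads of amplified RNA are not independent molecules.

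Aux/IAA proteins repress auxin response. They bind the auxin response factors (ARFs) that sit on auxin-responsive promoters and bring in TOPLESS corepressors. TIR1 and its relatives AFB1 to AFB5 are F-box proteins of an SCF ubiquitin ligase. Auxin joins receptor and Aux/IAA protein through a short degron in the repressor, which is then degraded and frees the ARF. In the embryo the repressor BODENLOS (IAA12) acts with the activator MONOPTEROS (ARF5) in founding the root. The microRNA miR393 pairs with transcripts of TIR1, AFB1, AFB2 and AFB3.

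The 2 mature 5′ arms of miR393, from miR393a (chr2:16652111-16652132) and miR393b (chr3:20691657-20691678), are identical in the TAIR10.1 annotation from RefSeq. The sequence is shown because DCL1 makes this molecule and 4 of the receptors carry its site, with the seed (bases 2 to 8) in capitals.
miR393a and miR393b: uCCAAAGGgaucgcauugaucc
The best ungapped match to its reverse complement in each receptor transcript is given below, 5′ to 3′, with mismatched bases in capitals and a G opposite U counted as a mismatch. AT3G23690, a basic helix-loop-helix gene that is not a receptor, is added as a further transcript with a close match. AT2G33540 and AT5G45100 matched as closely, with 4 mismatches, but are not shown, and their levels were not compared. All sites shown lay in coding sequence.
TIR1 (chr3:23273727-23273748, minus strand): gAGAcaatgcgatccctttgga
AFB1 (chr4:1405341-1405362, minus strand): gAGAcCatgcgatccctttgga
AFB2 (chr3:9870237-9870258, plus strand): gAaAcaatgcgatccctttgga
AFB3 (chr1:4369085-4369106, minus strand): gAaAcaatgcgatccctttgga
AFB4 (chr4:12615419-12615440, minus strand): ggTtcaaAgAgCtTActttggT
AFB5 (chr5:20335762-20335783, minus strand): ggatcTCtTGTTtccctGAgga
AT3G23690 (chr3:8530587-8530608, minus strand): ggGtcaGAgcgatccctttggC
AFB2 and AFB3 carried the same 22 bases with 2 mismatches, TIR1 had 3 and AFB1 had 4. AFB4 had 7 mismatches and AFB5 had 8. Of 31464 annotated transcripts searched, 7 (0.0222%) held a site with at most 4 mismatches and 1549 (4.92%) one with at most 7. The letters at AFB4 were therefore no closer than those in many other transcripts.

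The degron core of Aux/IAA proteins is glycine, tryptophan, proline, proline. It was searched in coding sequences as the consecutive in-frame codons GGN, TGG, CCN and CCN, on the coding strand alone. Levels are in RPM, reads scaled to all genome-matching reads of the library. The stretches of the 6 Aux/IAA genes that averaged 20 RPM or more are shown with these 4 codons in capitals, because they are the bulk of the family in these embryos.
IAA8 (chr2:9637725-9637754, plus strand): caggttgttGGTTGGCCTCCAatcagatca
IAA9 (chr5:26255104-26255133, plus strand): caaattgtcGGTTGGCCTCCAgtgagatcc
IAA27 (chr4:14324654-14324683, minus strand): caagtggtgGGATGGCCACCAataagatca
IAA12 (chr1:1241058-1241087, plus strand): caagtggtaGGATGGCCACCAattgggtta
IAA13 (chr2:14115233-14115262, minus strand): caagttgttGGATGGCCTCCTatagggtca
IAA18 (chr1:19306231-19306260, plus strand): ccagtggtgGGATGGCCTCCGgttcgatcc
The core amino acids are spelled with different wobble bases from gene to gene. The 4 codons were found in 23 of 29 Aux/IAA coding sequences (79.3%) and in 34 of 27562 coding sequences of the annotation (0.123%). IAA20, IAA30, IAA31, IAA32, IAA33 and IAA34 lacked them. The nearest in-frame window of IAA31 differed by 1 base and those of the other 5 by 3 to 5 bases.

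The dcl1-5 library had 4513588 genome-matching reads and the wild-type library 5611643, so that 1 read stood for 0.222 RPM in dcl1-5 and 0.178 RPM in wild type. DCL1 itself had 3 reads in dcl1-5 embryos, against 26 in wild type, but another locus overlaps it on the same strand. A gene was tested if its mean over both libraries was at least 5 RPM, and it was called if log2((dcl1-5 RPM + 1) / (wild-type RPM + 1)) was at least 1 or at most -1. Of 10240 tested genes 33.8% were called higher in dcl1-5 and 4.58% lower. As scaled by the authors, the tested genes had a median log2 ratio of 0.63, and under median-of-ratios scaling and TMM it was 0.18 and 0.00. The share of calls that were higher was 88.1% in the authors' scaling, 64.5% under median-of-ratios and 50.8% under TMM. The same 2-fold rule was therefore also applied after subtracting the median, which called 14.6% of tested genes higher and 14.4% lower. The 100 most abundant loci took 24.4% of genome-matching reads in dcl1-5 and 35.8% in wild type. Its part in the results was not tested.

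Embryo marker genes were read in both libraries, with a summed level of 1168 RPM in dcl1-5 and 1029 RPM in wild type over the 10 genes of the list, and 2 of 9 tested rose (33.8% of all tested genes did) and 1 fell (4.58%). WOX8 had 16.2 RPM in dcl1-5, against 4.28 RPM in wild type, and WOX9 had 29.9 RPM in dcl1-5, against 8.91 RPM in wild type. DRN had 1.99 RPM in dcl1-5, against 26.7 RPM in wild type. The 11 seed coat markers, which mark maternal tissue around the embryo, summed to 392 RPM in dcl1-5 and 199 RPM in wild type. Of 7 tested, 4 rose (33.8% of all tested genes did), and 3 still passed net of the median (14.6% of all). BAN had 125 RPM in dcl1-5, against 32.6 RPM in wild type. GL2, which shares its strand with another locus, had 17.5 RPM in dcl1-5, against 3.74 RPM in wild type, and TT1 had 8.42 RPM in dcl1-5, against 1.60 RPM in wild type. The list was not uniform. LDOX had 151 RPM in dcl1-5, against 131 RPM in wild type, and its log2 ratio turned with the scaling. LDOX, TT2 and TT12 were not called. Of the untested markers, AHA10 had 1 read in dcl1-5, against 5 in wild type, while TT8, TT16 and TTG2 had more reads in dcl1-5. The 7 listed endosperm markers summed to 59.4 RPM in dcl1-5 and 30.1 RPM in wild type. Of these, 1 of 3 tested rose (33.8% of all tested genes did), FIS2 with 11.7 RPM in dcl1-5, against 0.535 RPM in wild type. FWA had 27.0 RPM in dcl1-5, against 13.5 RPM in wild type, and SUC5 had 17.9 RPM in dcl1-5, against 10.7 RPM in wild type, and these were not called. The untested AGL62 had 1 read in dcl1-5, against 9 in wild type, MEA had 6 reads in dcl1-5, against 15 in wild type, and ZOU had 1 read in dcl1-5, against 3 in wild type. MINI3, also untested, had 4 reads in dcl1-5, against 3 in wild type. WOX8, GL2, TT1 and FIS2 were under 5 RPM in wild type and entered the test through their dcl1-5 values, so these counts describe the tested genes alone. None of the listed markers was at 0 in either library, but the endosperm markers PHE1 and IKU2 were not listed and count as not detected. The part of other tissues in the results below was not tested. In whole embryos, fewer cells of a type and less RNA per cell cannot be told apart.

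The Aux/IAA transcripts as a family stood at 1018 RPM in dcl1-5 embryos, against 524 RPM in wild type, a ratio of 1.94 [1.85 to 2.03]. The receptors together stood at 137 RPM in dcl1-5, against 131 RPM in wild type, a ratio of 1.05 [0.938 to 1.17]. With TMM scaling these ratios were 1.22 and 0.656, so the direction of the receptor sum turned with the scaling while that of the Aux/IAA sum did not. A ratio within each library needs no scaling. For each receptor read there were 7.41 [6.81 to 8.07] Aux/IAA reads in dcl1-5 and 3.99 [3.68 to 4.33] in wild type, which differ by a factor of 1.86 [1.65 to 2.09]. That factor was 1.81 without IAA8, the most abundant repressor, and 1.57 [1.38 to 1.79] without AFB2. It was 1.59 without IAA8, IAA9 and IAA27 together. The counting error of these sums is small, and the variation between embryo pools is not known.

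Of the 15 Aux/IAA genes tested, 7 rose in dcl1-5 (33.8% of all tested genes did) and none fell (4.58% of all). The 7 were IAA1, IAA8, IAA16, IAA17, IAA19, IAA27 and IAA31. IAA1, IAA16 and IAA17 entered the test through their dcl1-5 values, being under 5 RPM in wild type, so this count is a description of the tested genes and carries no weight of its own. Net of the median 3 passed, IAA1, IAA16 and IAA19, against 14.6% of all tested genes. The median log2 ratio of the 15 was 0.96, beside 0.63 for all tested genes. Of the 25 listed Aux/IAA genes, 20 had more RPM in dcl1-5 and 5 had less in the authors' scaling, in which most tested genes were higher. The same share over all listed loci was not counted, so this count is not read as a trait of the family. Among the 20, IAA2, IAA3, IAA7, IAA18 and IAA30 changed sign with the scaling. None of the 4 tested receptors rose or fell by the 2-fold rule, and AFB2 alone was lower net of the median (14.4% of all tested genes were). The median log2 ratio of these 4 was 0.23. At 4-fold only IAA1 was higher (7.82% of all tested genes) and no member was lower (0.811%). Under TMM, 3 Aux/IAA genes were higher (15% of all tested) and AFB2 was lower (14.5%), and under median-of-ratios 4 were higher (19.4%) and AFB2 lower (10.7%). By an exact binomial test on reads with Benjamini-Hochberg adjustment, which measures counting error only, 11 Aux/IAA genes were higher (59.6% of all tested) and AFB2 was lower (14.3%).

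**Figure D1:**
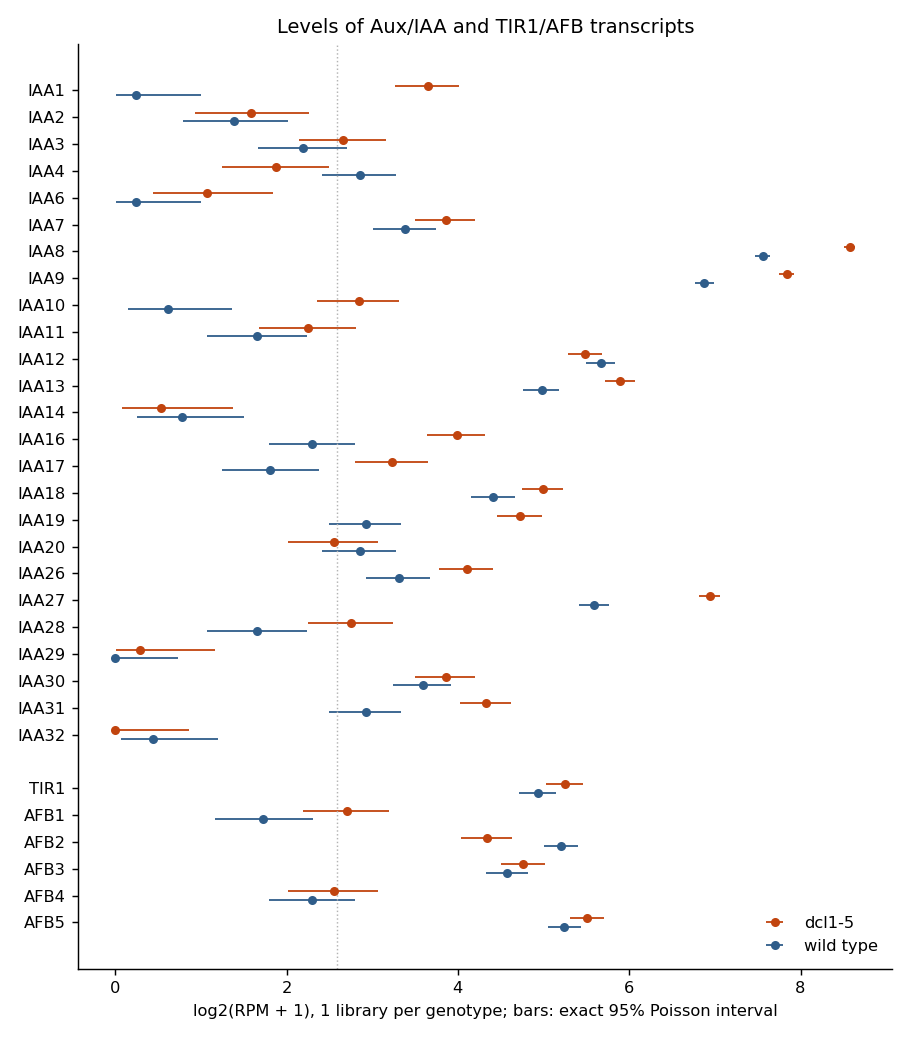
Levels of the 31 listed members as log2(RPM + 1), with dcl1-5 above wild type in each row (1 library each), bars for exact 95% Poisson intervals and a dotted line at 5 RPM. IAA8 and IAA9 lie farthest to the right in both libraries, IAA1 has the widest gap between genotypes, and AFB2 lies lower in dcl1-5 than in wild type.

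The closely related repressors IAA8, IAA9 and IAA27 made up 71.7% [70.4 to 73.0] of Aux/IAA reads in dcl1-5 and 66.9% [65.2 to 68.6] in wild type. IAA8 (AT2G22670) had 379.7 RPM in dcl1-5, against 187 RPM in wild type, a ratio of 2.03 [1.88 to 2.19] and a log2 ratio of 1.02. It passed the 2-fold rule narrowly, and its log2 ratio was 0.39 net of the median and 0.35 with TMM. IAA9 (AT5G65670) had 228 RPM in dcl1-5, against 116 RPM in wild type, and a log2 ratio of 0.96 that did not pass. IAA27 (AT4G29080) had 122 RPM in dcl1-5, against 47.2 RPM in wild type, a ratio of 2.58 [2.23 to 3.0]. Its log2 ratio of 1.35 passed the rule, and the value of 0.72 net of the median did not. The median itself varied with abundance. Across 10 bins of mean RPM, a split added after seeing the data, it was 0.86 for the least abundant bin. It was 0.44 for the bin of IAA27 and 0.06 for the most abundant bin, that of IAA8 and IAA9. Net of these bin medians the log2 ratios were 0.96 for IAA8, 0.91 for IAA9 and 0.91 for IAA27. None of these values passed the 2-fold rule. Per kilobase of coding sequence IAA8 ranked 1 and IAA9 ranked 2 among Aux/IAA genes in both libraries. IAA27 ranked 3 in dcl1-5 and 4 in wild type. Opposite-strand loci overlap 10 listed members, namely IAA3, IAA9, IAA10, IAA11, IAA13, IAA27, IAA32, AFB1, AFB3 and AFB4, and reads were counted by strand.

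BODENLOS (IAA12, AT1G04550) and its closest relative IAA13 (AT2G33310) shared their reads differently in the 2 libraries. IAA12 had 198 reads in dcl1-5, against 280 in wild type, which is 43.9 RPM in dcl1-5 and 49.9 RPM in wild type. Its ratio was 0.879 [0.729 to 1.06], with a log2 ratio of -0.18 that was -0.81 net of the median and passed neither rule. IAA13 had 264 reads in dcl1-5, against 171 in wild type, which is 58.5 RPM in dcl1-5 and 30.5 RPM in wild type. Its ratio was 1.92 [1.58 to 2.34], with a log2 ratio of 0.92 that did not pass either. Within the pair IAA12 took 42.9% [38.3 to 47.5] of reads in dcl1-5 and 62.1% [57.4 to 66.6] in wild type. The more abundant member of the pair was therefore IAA13 in dcl1-5 and IAA12 in wild type, also per kilobase of coding sequence. The intervals of the share do not overlap, but how often those of other gene pairs lie apart was not counted. Together IAA12 and IAA13 held 10.1% [9.20 to 11.0] of Aux/IAA reads in dcl1-5 and 15.3% [14.0 to 16.7] in wild type.

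The highest ratio among the tested members was that of IAA1 (AT4G14560), an auxin-inducible repressor, with 52 reads in dcl1-5, against 1 in wild type. That is 11.5 RPM in dcl1-5 and 0.178 RPM in wild type, a ratio of 64.7 [11.1 to 2602] and a log2 ratio of 3.41. Of all tested genes 99.4% had a lower log2 ratio. IAA1 entered the test through its dcl1-5 value, so this rank is a description and carries no weight of its own. IAA2, its closest relative, had 9 reads in each library. IAA1 took 85.2% [73.8 to 93] of the reads of this pair in dcl1-5 and 10% [0.253 to 44.5] in wild type, where only 10 reads lay in the pair. IAA19 (AT3G15540), which is also auxin-inducible and acts in hypocotyl bending, had 25.5 RPM in dcl1-5, against 6.59 RPM in wild type. Its ratio was 3.86 [2.65 to 5.76], its log2 ratio 1.80 and the value net of the median 1.18. IAA6, the nearest relative of IAA19, had 5 reads in dcl1-5, against 1 in wild type.

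The upstream regions of IAA1 and IAA19 are shown because these 2 genes passed net of the median and hold the auxin response element TGTCTC. IAA16, which also passed net of the median, held no copy and is not shown. The 2 genes were thus picked for holding the element. The stretches are the 250 bases before the annotated start in TAIR10.1, 5′ to 3′ on the gene's strand. They lie at chr4:8360746-8360995 for IAA1 and chr3:5263751-5264000 for IAA19, both on the plus strand. The canonical auxin response element TGTCTC, searched on either strand as a single motif, is in capitals.
IAA1: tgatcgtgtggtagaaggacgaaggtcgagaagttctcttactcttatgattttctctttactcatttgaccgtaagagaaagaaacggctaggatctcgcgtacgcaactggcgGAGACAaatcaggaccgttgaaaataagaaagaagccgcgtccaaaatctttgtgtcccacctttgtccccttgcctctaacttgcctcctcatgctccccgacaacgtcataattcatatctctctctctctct
IAA19: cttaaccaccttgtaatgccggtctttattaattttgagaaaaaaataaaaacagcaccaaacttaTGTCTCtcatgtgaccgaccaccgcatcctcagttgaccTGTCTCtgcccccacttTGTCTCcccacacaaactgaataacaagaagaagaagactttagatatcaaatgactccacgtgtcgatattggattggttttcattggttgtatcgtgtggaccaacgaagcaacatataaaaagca
IAA1 held 1 copy, on the opposite strand, and IAA19 held 3. The element occurred in this window in 9 of 29 Aux/IAA genes (31.0%), in 1 of 6 receptor genes (AFB5), and in 2154 of 20508 listed loci (10.5%). Among Aux/IAA genes that rose it was found in 3 of 7 (IAA1, IAA8 and IAA19). Among tested Aux/IAA genes that were not called it was found in 2 of 8 (IAA20 and IAA30). A match is a description of the letters in this window.

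IAA7, IAA14, IAA16 and IAA17 form a group known for stabilised root and shoot mutants, and summed to 37.2 RPM in dcl1-5 and 16.6 RPM in wild type. IAA16 (AT3G04730) had 67 reads in dcl1-5, against 22 in wild type, which is 14.8 RPM in dcl1-5 and 3.92 RPM in wild type. It rose by a ratio of 3.79 [2.31 to 6.44], with a log2 ratio of 1.69 that was 1.06 net of the median. IAA17 (AXR3, AT1G04250) had 38 reads in dcl1-5, against 14 in wild type, a ratio of 3.37 [1.79 to 6.74] and a log2 ratio of 1.43. It passed the 2-fold rule, but not net of the median (0.80). IAA7 (AXR2) had 13.5 RPM in dcl1-5, against 9.44 RPM in wild type, and its log2 ratio of 0.47 changed sign with TMM scaling. IAA14 (SOLITARY-ROOT), which acts in lateral root initiation, had 2 reads in dcl1-5 and 4 in wild type.

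IAA20, IAA30 and IAA31, which lack the complete degron codons, had differing ratios. IAA31 (AT3G17600) rose, with 19.1 RPM in dcl1-5, against 6.59 RPM in wild type, a ratio of 2.89 [1.94 to 4.37] and a log2 ratio of 1.40. IAA30 had 13.5 RPM in dcl1-5, against 11.0 RPM in wild type, a log2 ratio that turned with the scaling. IAA20 had 4.87 RPM in dcl1-5, against 6.24 RPM in wild type, a ratio of 0.781 [0.437 to 1.37]. IAA32, also without the codons, had 0 reads in dcl1-5, against 2 reads in wild type. The limit of 3 reads taken for a count of 0 is 0.665 RPM in dcl1-5, and the exact interval drawn in the plot of levels reaches 0.817 RPM. Listed members without the codons held 3.68% [3.15 to 4.27] of Aux/IAA reads in dcl1-5 and 4.62% [3.89 to 5.44] in wild type. Their sum had a ratio of 1.54 [1.23 to 1.95], beside 1.96 [1.87 to 2.06] for those with the codons. Genes with the codons thus held 96.3% of repressor reads in dcl1-5 and 95.4% in wild type, and the intervals of the ratios overlap.

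The related repressors IAA18, IAA26 and IAA28 summed to 52.7 RPM in dcl1-5 and 31.4 RPM in wild type. IAA18, which is known from embryo patterning mutants, had 30.8 RPM in dcl1-5, against 20.3 RPM in wild type, and its log2 ratio of 0.58 turned with the scaling. IAA26 had 16.2 RPM in dcl1-5, against 8.91 RPM in wild type, a log2 ratio of 0.79 that did not pass. IAA28 was under the filter, with 26 reads in dcl1-5, against 12 in wild type.

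Other Aux/IAA genes under the filter had between 0 and 35 reads in a library. IAA4 had 12 reads in dcl1-5, against 35 in wild type, a ratio of 0.426 [0.201 to 0.841], while its relative IAA3 (SHY2) had 24 reads in dcl1-5, against 20 in wild type. IAA3 took 66.7% [49.0 to 81.4] of this pair in dcl1-5 and 36.4% [23.8 to 50.4] in wild type, and these intervals overlap slightly. IAA10 had 28 reads in dcl1-5, against 3 in wild type, a ratio of 11.6 [3.58 to 59.6], and IAA11 had 17 reads in dcl1-5, against 12 in wild type. IAA29 had 1 read in dcl1-5 and 0 in wild type, so no ratio is given. Of the 31 listed members, 9 changed the sign of their log2 ratio between scalings, namely IAA2, IAA3, IAA7, IAA18, IAA30, TIR1, AFB3, AFB4 and AFB5.

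**Figure D2:**
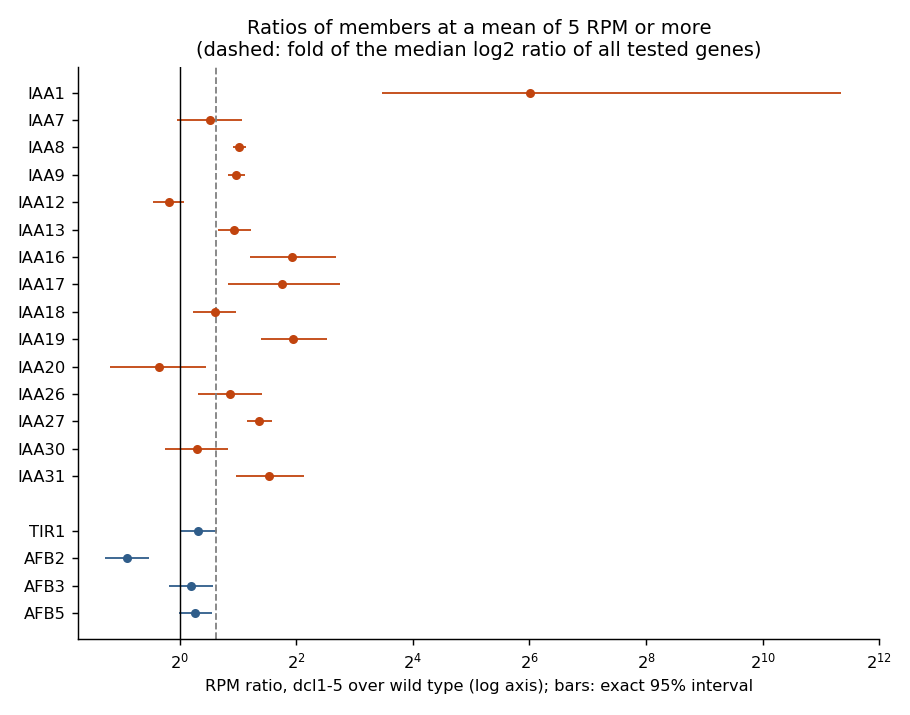
RPM ratio of dcl1-5 over wild type (log axis) for the 15 Aux/IAA genes (upper block) and 4 receptors (lower block) at a mean of at least 5 RPM, with exact 95% counting intervals. The solid line marks equal RPM and the dashed line the fold of the all-gene median log2 ratio of 0.63; IAA1 lies far to the right with the widest interval, AFB2 lies left of both lines, and IAA7, IAA18, IAA30, TIR1, AFB3 and AFB5 change sign with the scaling.

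Among the receptors, AFB2 (AT3G26810) had the lowest ratio. It had 87 reads in dcl1-5, against 201 in wild type, which is 19.3 RPM in dcl1-5 and 35.8 RPM in wild type. The ratio was 0.538 [0.414 to 0.695], with a log2 ratio of -0.86 that did not pass the 2-fold rule and was -1.49 net of the median, which did. Of all tested genes 6.0% had a lower log2 ratio. AFB3 (AT1G12820) had 118 reads in dcl1-5, against 128 in wild type, which is 26.1 RPM in dcl1-5 and 22.8 RPM in wild type, a ratio of 1.15 [0.885 to 1.48]. AFB2 and AFB3 carry the same miR393 site and are 82.8% identical over their aligned coding sequence. Within this pair AFB2 took 42.4% [35.6 to 49.5] of reads in dcl1-5 and 61.1% [55.6 to 66.4] in wild type. These intervals do not overlap, but how often those of other gene pairs lie apart was not counted. Of all receptor reads AFB2 held 14.0% in dcl1-5 and 27.3% in wild type. Per kilobase of coding sequence it ranked 4 of 6 in dcl1-5 and 1 of 6 in wild type, at 11.2 RPM per kilobase in dcl1-5 and 20.7 RPM per kilobase in wild type.

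TIR1 (AT3G62980), the founding auxin receptor, had 167 reads in dcl1-5, against 166 in wild type, which is 37.0 RPM in dcl1-5 and 29.6 RPM in wild type. AFB5 (AT5G49980), a receptor that also binds the synthetic auxin picloram, had 201 reads in dcl1-5, against 207 in wild type, which is 44.5 RPM in dcl1-5 and 36.9 RPM in wild type. The log2 ratios of both turned with the scaling. AFB1 had 25 reads in dcl1-5, against 13 in wild type, a ratio of 2.39 [1.18 to 5.09], and was under the filter. AFB4 had 22 reads in each library. Per kilobase of coding sequence the order in dcl1-5 was AFB5, TIR1, AFB3, AFB2, and in wild type AFB2, AFB5, TIR1, AFB3. In each library the counting intervals of neighbours in that order overlap, so neighbouring ranks are not resolved.

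Set beside the sites printed above, the receptors with 2 to 4 mismatches to miR393 had ratios between 0.538 and 2.39. AFB4 and AFB5, with 7 and 8 mismatches, had ratios of 1.24 and 1.21. AT3G23690, with 4 mismatches, had 72 reads in dcl1-5, against 3 in wild type, a ratio of 29.8 [9.81 to 148]. It had 0.535 RPM in wild type and entered the test through its dcl1-5 value. COI1, the related jasmonate receptor, had 8 mismatches and 25.3 RPM in dcl1-5, against 14.4 RPM in wild type. None of TIR1, AFB2 and AFB3 was called higher (33.8% of all tested genes were), which is too few genes to read as a result. AFB1 was not tested, and the loci MIR393A and MIR393B were not among those listed. How much miR393 either genotype contained was not measured in these libraries.

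**Figure D3:**
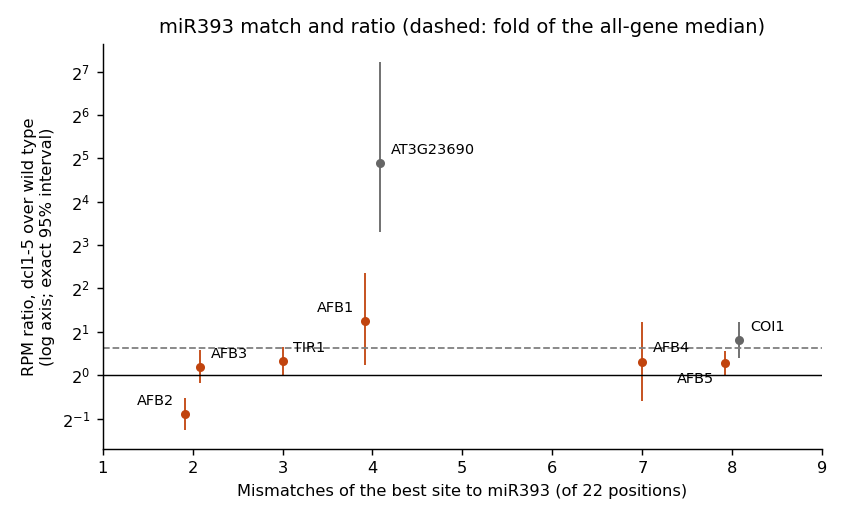
Mismatches of the best miR393 site (x axis, of 22 positions) against the RPM ratio of dcl1-5 over wild type (y axis, log axis) for the 6 receptors, COI1 and AT3G23690, with exact 95% counting intervals; the dashed line is the fold of the all-gene median, and points with equal mismatches are shifted sideways. AFB2 and AFB3 share a site and lie at 0.538 and 1.15, AT3G23690 lies at 29.8, and the log2 ratios of TIR1, AFB3, AFB4 and AFB5 change sign with the scaling.

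Shares within a family do not depend on the scaling between libraries. IAA8 held 37.3% of Aux/IAA reads in dcl1-5 and 35.7% in wild type, and IAA9 held 22.4% in dcl1-5 and 22.2% in wild type. IAA27 held 12% in dcl1-5 and 9.0% in wild type, and IAA12 held 4.31% in dcl1-5 and 9.51% in wild type. IAA8 and IAA9 thus led in both libraries, with IAA27 next in dcl1-5 and IAA12 next in wild type.

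**Figure D4:**
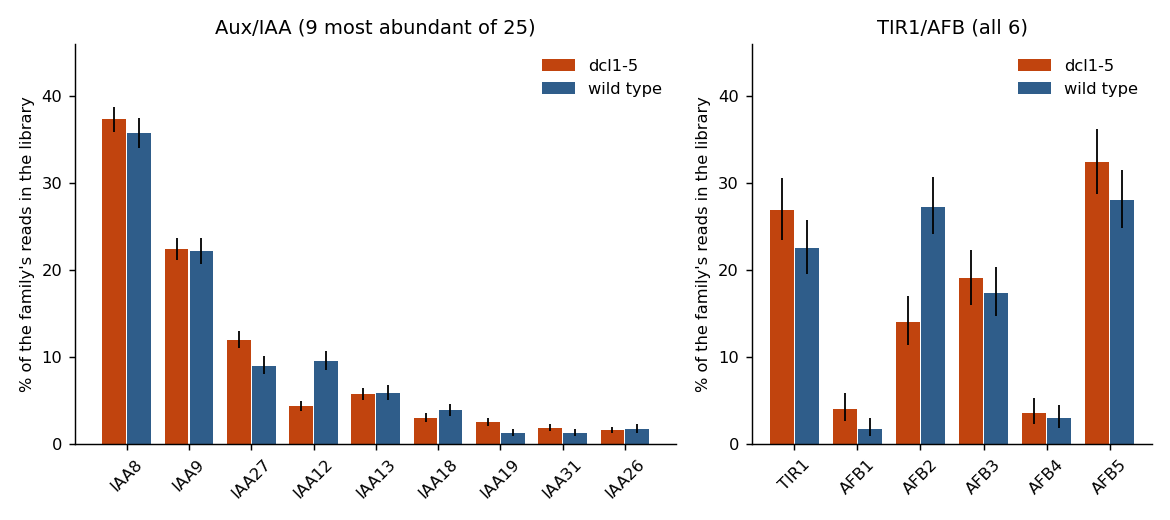
Share of each gene in the reads of its family, in percent, for the 9 most abundant Aux/IAA genes (left) and the 6 receptors (right), with dcl1-5 left of wild type and exact 95% binomial intervals as bars. IAA12 holds 4.31% in dcl1-5 and 9.51% in wild type, and AFB2 holds 14.0% in dcl1-5 and 27.3% in wild type.

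Closest pairs were defined by reciprocal best alignment of coding sequence. IAA8 held 62.5% [60.6 to 64.3] of the reads of IAA8 and IAA9 in dcl1-5 and 61.7% [59.3 to 64.0] in wild type. AFB4 held 9.87% of AFB4 and AFB5 in dcl1-5 and 9.61% in wild type, and IAA18 held 65.6% of IAA18 and IAA26 in dcl1-5 and 69.5% in wild type. The intervals of the 2 genotypes were apart for IAA1 and IAA2, IAA12 and IAA13, and AFB2 and AFB3. How often this holds over other gene pairs was not counted, so it is not read as a trait of these pairs. By the exact binomial test, which measures counting error only, 59.6% of all tested genes were higher and 14.3% lower. IAA10 held 62.2% [46.5 to 76.2] of the reads of IAA10 and IAA11 in dcl1-5 and 20% [4.33 to 48.1] in wild type, intervals that overlap slightly, as do those of IAA3 and IAA4 given above. Stretches of 25 bases found without mismatch elsewhere in the genome made up at most 3.28% of any member, which matters because the authors kept uniquely mapped reads. Their alignment allowed up to 2 mismatches in the seed, so this share cannot show how many reads of close relatives were discarded.

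**Figure D5:**
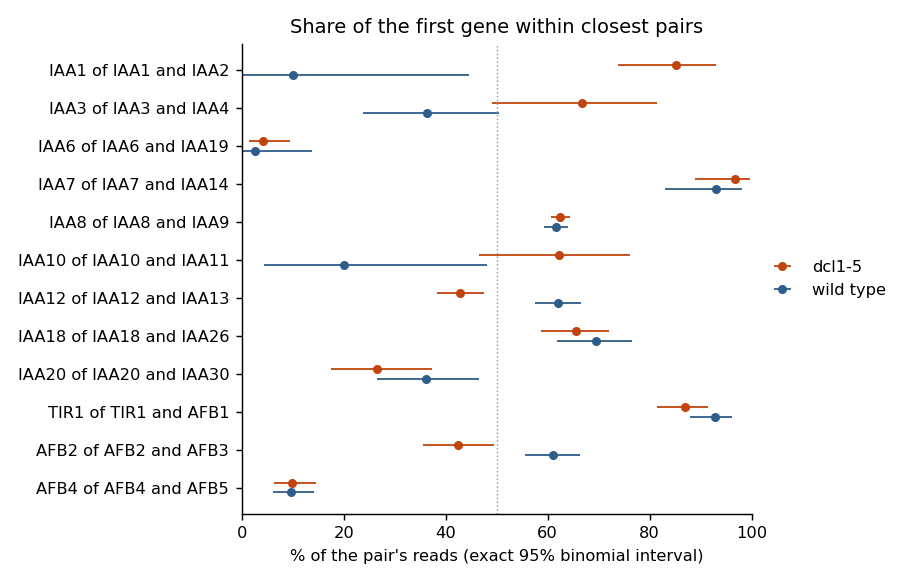
Share of the first gene in the reads of its closest pair, in percent, with dcl1-5 above wild type in each row and exact 95% binomial intervals. The intervals do not overlap for IAA1 and IAA2, IAA12 and IAA13, and AFB2 and AFB3, and the dotted line marks equal reads. How often intervals lie apart over other gene pairs was not counted.

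Partners of the repressors and receptors were read from lists by role. Of 13 subunits and regulators of the SCF ligase, all tested, 3 rose (33.8% of all tested genes did) and none fell (4.58%), with a median log2 ratio of 0.77 (0.63 for all tested genes). AXR1, which activates the ubiquitin-like RUB that modifies cullin, had 39.7 RPM in dcl1-5, against 14.3 RPM in wild type, and its homologue AXL had 7.98 RPM in dcl1-5, against 2.32 RPM in wild type, so that AXL entered the test through its dcl1-5 value. CAND1, which exchanges F-box proteins on cullin, had 36.1 RPM in dcl1-5, against 16.2 RPM in wild type. None of the 3 passed net of the median. ECR1, the partner of AXR1, was the one member lower net of the median, with 21.7 RPM in dcl1-5, against 37.6 RPM in wild type, and was named after its values were seen.

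Of the 5 TOPLESS corepressors 1 rose (33.8% of all tested genes did), with a median log2 ratio of 0.67. It was TPR3, with 56.5 RPM in dcl1-5, against 7.84 RPM in wild type, a ratio of 7.21 [5.22 to 10.2] that also passed net of the median. TPR4 had 68.5 RPM in dcl1-5, against 39.7 RPM in wild type, and TPR1 had 53.0 RPM in dcl1-5, against 33.0 RPM in wild type, and neither was called. Among the activator ARFs, which Aux/IAA proteins repress, 3 of 4 tested rose (33.8% of all tested genes did), with a median log2 ratio of 1.25, and none passed net of the median (14.6% of all). ARF8 had 135 RPM in dcl1-5, against 49.9 RPM in wild type. ARF7 had 21.0 RPM in dcl1-5, against 7.48 RPM in wild type, and ARF6 had 74.4 RPM in dcl1-5, against 33.5 RPM in wild type. MONOPTEROS (ARF5), named after its values were seen, had 93.7 RPM in dcl1-5, against 104 RPM in wild type, a log2 ratio of -0.14 beside the -0.18 of its repressor IAA12.

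Auxin-responsive GH3 genes, which encode enzymes that conjugate auxin to amino acids, went both ways, with 2 of 3 tested higher (33.8% of all tested genes were), 1 lower (4.58%) and a median log2 ratio of 1.45. GH3.5 entered the test through its dcl1-5 value. Net of the median GH3.5 remained higher and GH3.2 lower. GH3.5 had 65 reads in dcl1-5, against 2 in wild type, a ratio of 40.4 [10.7 to 341], and GH3.3 had 16.4 RPM in dcl1-5, against 5.35 RPM in wild type. GH3.2 fell, with 24.1 RPM in dcl1-5, against 56.5 RPM in wild type, a ratio of 0.427 [0.341 to 0.533]. The 5 other auxin-related genes tested had a median log2 ratio of 0.78 (0.63 for all tested genes), with 1 higher (33.8% of all tested genes were) and 1 lower (4.58%). HAT2, a homeobox gene, rose, with 53.8 RPM in dcl1-5, against 16.6 RPM in wild type. DRN, an AP2-type regulator of cotyledon formation, fell as given among the embryo markers. Its relative DRNL, named after its values were seen, was lower only net of the median, with 11.5 RPM in dcl1-5, against 15.7 RPM in wild type. Of the 32 partner, response and comparison genes tested, 11 were higher (33.8% of all tested genes were) and 2 lower (4.58%). Of the 11, AXL, GH3.5 and AT3G23690 entered the test through their dcl1-5 values. With TMM scaling 3 of the 32 were higher (15% of all) and 4 lower (14.5%).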

How the data were processed

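Both libraries are poly(A) RNA with 1 library per genotype. Per the series' design text, the authors used Bowtie against TAIR9 with a 25 nt seed (at most 2 mismatches), discarded non-unique alignments, and counted antisense reads because the amplified RNA is antisense. No Bowtie version is stated. The deposited values are RPM, scaled to the genome-matching reads of the library, per the labels. For 100% of values they were whole multiples of 1 read (tolerance 0.01 reads), so reads were recovered. Listed genes took 88.0% of reads in dcl1-5 and 90.2% in wild type, and 3 reads, the limit that a count of 0 allows, are 0.665 RPM and 0.535 RPM.

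Members and gene lists were chosen with earlier results of these data known. All members are named, with DCL1, the up to 3 members per partner list with the largest absolute log2 ratio at a mean of at least 5 RPM, miR393 targets, and 3 markers per list. Further seed coat and endosperm markers are named beyond this rule. The values of 1 gene under this rule are not reported here. The pseudocount was 1 RPM. Ratios are plain RPM ratios with exact conditional intervals, and shares have exact Clopper-Pearson intervals. Genes, coding lengths and sequences came from the RefSeq annotation of TAIR10.1, matched by locus tag (35 of 35 members, 20509 listed loci). It differs from the authors' build, so printed coordinates are those of TAIR10.1. The degron was searched in coding sequence, because no protein sequences were used here.

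The settings varied were the pseudocount (0.1 and 5 RPM), the filter (none, or 20 RPM), the scaling (equal totals, median-of-ratios, and TMM by edgeR 4.0.16 in R 4.3.3), the threshold (4-fold), subtraction of the median, and an exact binomial test on reads with Benjamini-Hochberg adjustment at 0.05. Calculations used Python 3.11.15, numpy 2.4.6, pandas 2.3.3 and scipy 1.17.1, and were tested on simulated data. Subtraction of medians within 10 bins of mean RPM, and a sum without AFB2, were added after seeing the data.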

Additional observations from a re-analysis of the deposited data

How the results depend on the processing

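No paired analysis was possible because there was 1 library per genotype, and for the same reason no replicate could be left out. Against 7 Aux/IAA genes higher and none lower, the count higher was 2 at a mean of at least 20 RPM (6 tested), 4 with median-of-ratios scaling, 3 with TMM or net of the median, 1 at 4-fold (IAA1), and 11 by the exact binomial test on reads, which measures counting error only and called 59.6% of all tested genes higher. Centring within 10 bins of mean RPM gave 2 higher and 1 lower (IAA20). For receptors, 1 was lower (AFB2) with median-of-ratios, TMM, either centring and the binomial test. Over all genes, 3464 were higher and 469 lower. These counts were 5706 and 1154 without a filter, 1243 and 220 at 20 RPM, 1984 and 1091 with median-of-ratios, 1535 and 1487 with TMM, 1499 and 1471 net of the median, 801 and 83 at 4-fold, 1374 and 1373 within these bins, and 6101 and 1466 by the binomial test. The Aux/IAA sum ratio of 1.94 was 1.39 with median-of-ratios, 1.22 with TMM and 1.83 without overlapped loci. The receptor sum ratio of 1.05 was 0.750 and 0.656 with those scalings. The ratio of Aux/IAA to receptor reads, 1.86-fold higher in dcl1-5, was 1.57-fold higher without AFB2. Partner genes, 11 higher and 2 lower, were 3 and 4 with TMM, and 4 and 4 net of the median. The cause of these shifts was not tested. Of the log2 ratios of single members under an alternative, 133 lay inside the counting interval of the plain RPM ratio and 53 outside. That interval holds no pseudocount, while the log2 ratios do. Of the shares, 56 moved by no more than the summed counting error of both libraries and 4 by more.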
